A study of Mus musculus with 10 samples.

Results

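Rab GTPases are the small Ras-like proteins that give each membrane compartment its identity and steer vesicles between compartments. The family was taken as every gene whose platform symbol is Rab followed by a digit, without the genes of Rab-binding proteins, which gave 59 genes out of 19938 genes compared. Rabs cycle between a GTP-bound form on membranes, which recruits effectors such as tethers and motors, and a GDP-bound form held in the cytosol. In the exocrine pancreas they are best known for the zymogen granules of acinar cells, which carry Rab3d and Rab27b and empty at the apical surface, and islet cells use Rab3a and Rab27a for hormone granules.

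The data came from total RNA of mouse pancreas, mixed strain background, on Affymetrix Mouse Gene 1.0 ST arrays. The DKO group (n = 5) had the genotype PDX1Cre,Mst1-/-,Mst2L/L, that is, a Mst1 null allele in all cells and floxed Mst2 alleles that are lost where the Pdx1 promoter, a promoter of pancreatic progenitor cells, drives Cre. The genotype of the control group (n = 5) is given only as Control, and neither age nor the animal behind each sample is stated, so the tests rest on the spread of these samples, which may be technical. Mst1 and Mst2 are the kinases at the head of the Hippo cascade, which holds back the coactivators YAP and TAZ.

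Values are log2 intensities as deposited, with array medians of 7.12 to 7.15, and the error beside a group mean is the SD of its 5 arrays. Stk4, the gene of Mst1, was at 5.13 ± 0.06 in DKO and 5.15 ± 0.09 in control (SD, n = 5 each), a low signal that gave no check of the genotype, and Stk3, the gene of Mst2, was not analysed here. Marker genes placed the arrays in pancreas, with acinar enzyme genes at the top of the scale. The mean of 12 hepatocyte markers was 11.07 in DKO replicate 1 and lay between 6.42 and 7.43 in the other 9 arrays, so results were also computed without that array. The mean of 5 fat markers spread more widely in DKO, from 6.996 to 9.426, than in control, from 8.011 to 8.417. That of 10 immune markers ran from 7.756 to 8.615 in DKO and from 8.132 to 8.406 in control. The mean of 12 acinar markers was 11.95 to 12.37 in DKO and 12.40 to 12.53 in control, and that of 11 duct markers 9.75 to 9.93 in DKO and 9.41 to 9.53 in control, with no overlap in either. Islet markers overlapped (9.89 to 10.11 in DKO and 9.98 to 10.33 in control, 14 genes). In whole tissue, fewer cells of a type and less RNA per cell cannot be told apart, and the part of these shifts in the Rab values was not tested.

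The comparison of DKO with control asked whether loss of the Hippo kinases altered the transcripts of vesicle traffic. Rab transcript levels in DKO pancreas stayed within small distances of control. None of the 59 genes passed an adjusted p of 0.05 in limma, against 2.44% of all genes tested, and the smallest adjusted p was 0.0642. Log2 changes of DKO over control ran between -0.37 and 0.37. The 95% confidence interval excluded a 2-fold change in either direction for 59 of 59 genes and a 1.5-fold change for 54. The other 5 were Rab27b, Rab39b, Rab32, Rab2b and Rab6b. Rab7b, whose change was 0.04 (limma adjusted p = 0.926), had been placed in none of the groups by compartment described here, which hold the other 58 genes. For 33 genes the estimated change was under 0.1 on the log2 scale.

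At an unadjusted p of 0.05, 10 Rab genes were higher and 6 lower in DKO, which is 16.9% and 10.2% of the family, against 9.18% and 5.66% of all genes. The counts were 8 higher and 8 lower after quantile normalization again, 7 and 8 after subtraction of array medians over the tested genes, and 9 and 7 without DKO replicate 1, and 0 passed the adjusted threshold in each case. The groups did not overlap for 4 genes higher in DKO (6.78%, against 3.52% of all genes) and for 1 lower (1.69%, against 1.28%). The median log2 change was 0.05 over the Rab genes and -0.006 over all genes. Of the 59 Rabs 41 lay in the brighter 50% of genes, and with the dimmest 50% left out the medians were 0.06 over the 41 Rabs and 0.04 over all genes kept. There 5 of the 41 Rabs were higher and 4 lower at an unadjusted p of 0.05. The share of all genes kept at that p was not counted. At the adjusted threshold 555 of the 9969 genes kept passed, against 487 of 19938 without the filter. Of the 59 genes 40 lay above 0 and 19 below, against 9497 above and 10441 below of all 19938 genes. The Rab split became 32 and 27 after median subtraction and 34 and 25 after quantile normalization. Median subtraction moves all changes by the same amount, and the median over all genes was then -0.047. After quantile normalization the median over all genes was -0.014. In the plot of log2 changes by site of action, the granule Rabs lie on both sides of 0 and the early endosome Rabs on one.

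**Figure D1:**
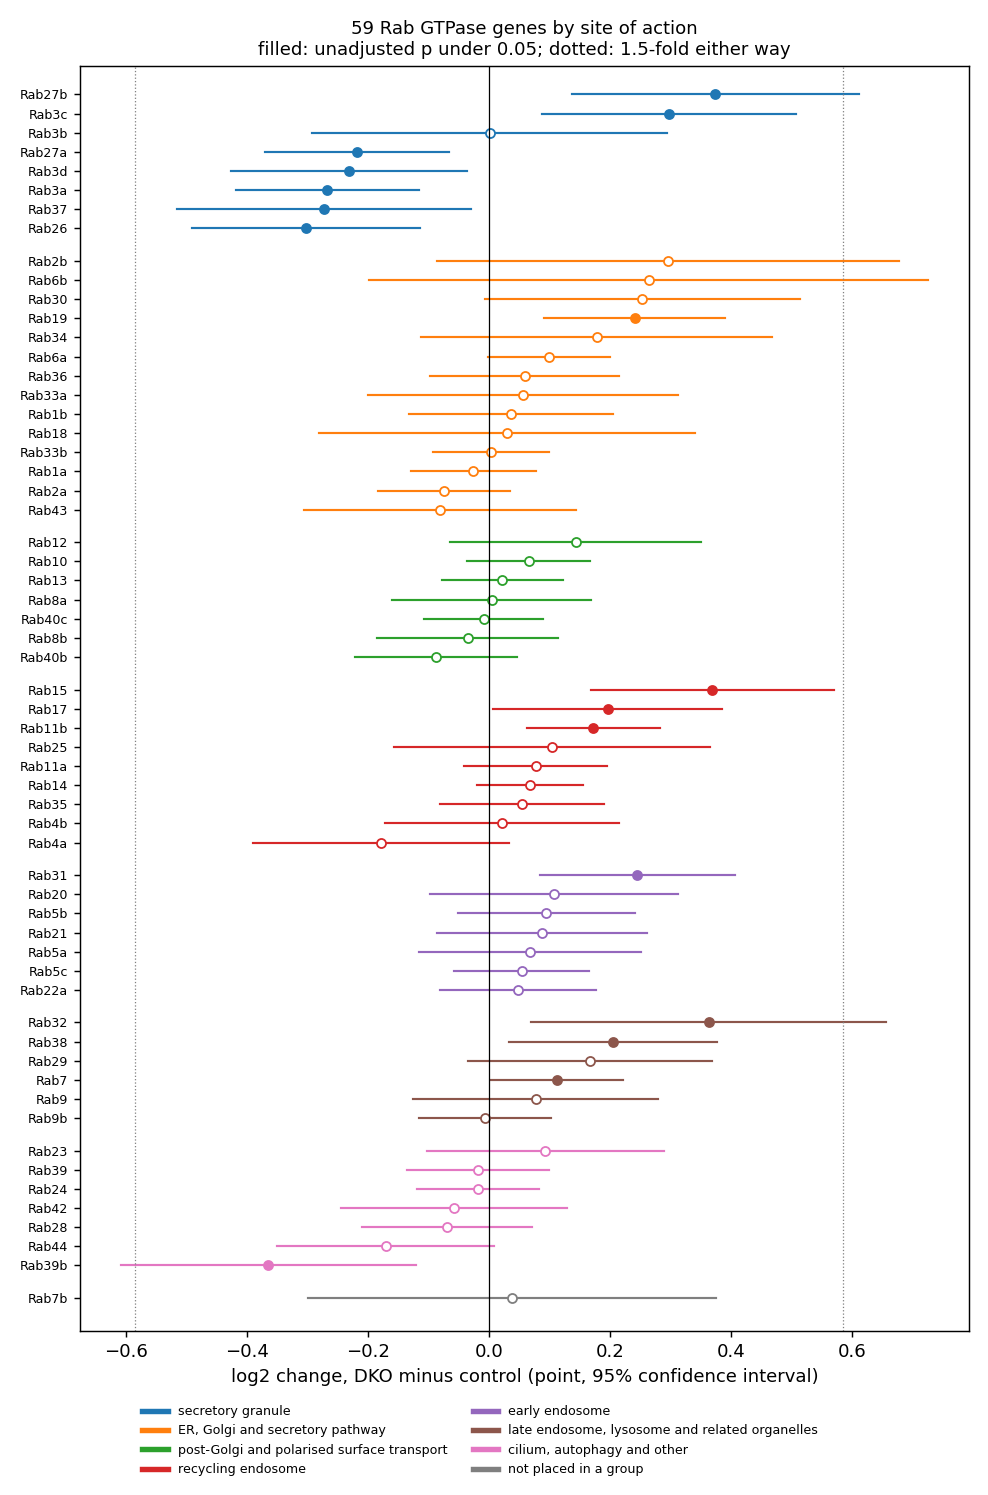
Log2 change of DKO minus control (horizontal axis, point and 95% confidence interval) for the 59 Rab genes, of which 58 are grouped and coloured by the compartment on which each is known to act, with Rab7b in no group; filled points have an unadjusted p under 0.05 and dotted lines mark a 1.5-fold change. The points run from -0.37 to 0.37; 5 of the 8 secretory granule Rabs lie below 0 (6 after quantile normalization or median subtraction), and 7 of 7 early endosome Rabs above it (6 after quantile normalization).

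Granule Rabs act at the release of digestive enzymes and hormones. Of 8 such genes 0 passed the adjusted threshold in limma, while at an unadjusted p of 0.05 there were 5 lower and 2 higher in DKO. Over all genes 5.66% were lower and 9.18% higher at that p. The median log2 change of the 8 granule genes was -0.23, and -0.27 after either rescaling. Of 12 acinar markers 12 had changes below 0 in the same arrays. Some were small, such as -0.01 for Ctrb1 and -0.04 for Cpa1, enzyme genes near the highest value of all arrays, 13.94. Only 1 marker passed, the PTF1 subunit gene Rbpjl (-0.45, limma adjusted p = 0.0225), against 0.366% of all genes lower. Rab3d, the zymogen granule Rab of acinar cells, had log2 levels of 10.69, 10.55, 10.78, 10.46 and 10.89 in DKO replicates 1 to 5, against 10.78, 10.83, 11.08, 10.91 and 10.93 in control replicates 1 to 5. The ranges overlapped, with DKO replicates 2 and 4 lowest. DKO differed from control by -0.23 ± 0.09 on the log2 scale (SE, limma adjusted p = 0.251).

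Rab26, a Rab of acinar granules and lysosomes, measured 8.23, 8.37, 8.58, 8.24 and 8.52 in DKO, against 8.52, 8.67, 8.76, 8.85 and 8.67 in control. Only DKO replicates 3 and 5 reached the control range. Its log2 change was -0.30 ± 0.09 (SE, limma adjusted p = 0.107), a ratio of 0.81. Rab26 and Rab3d are known targets of the acinar transcription factor MIST1 in secretory cells. Bhlha15, the gene of MIST1, was at 10.33 ± 0.46 in DKO and 10.90 ± 0.26 in control (SD, n = 5 each; limma adjusted p = 0.225), with DKO replicate 1 lowest at 9.54.

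Rab3a, the Rab of synaptic and neuroendocrine vesicles, was the granule gene with the smallest p. It measured 7.32, 7.22, 7.37, 7.31 and 7.48 in DKO, against 7.51, 7.56, 7.74, 7.50 and 7.73 in control. Every DKO array lay below every control array. The log2 change was -0.27 ± 0.07 (SE, limma adjusted p = 0.0741), and it passed only where arrays were weighted by their fit (-0.29, limma adjusted p = 0.0437). Rab37, described on mast cell and islet granules, was at 7.44 ± 0.15 in DKO and 7.71 ± 0.23 in control (SD, n = 5 each; limma adjusted p = 0.281), with overlapping arrays. Of 14 islet markers 13 had changes below 0 and 1 above, Slc2a2 (0.11), with a median of -0.16. None passed the adjusted threshold in limma. Iapp and Chga, those with the smallest p, had log2 changes of -0.32 and -0.31 (limma adjusted p = 0.0971 and 0.134).

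Rab27a and Rab27b are close relatives that dock granules at the plasma membrane through shared effectors. Rab27a measured 9.05, 9.00, 9.22, 9.15 and 9.37 in DKO, against 9.36, 9.32, 9.44, 9.40 and 9.38 in control. Only DKO replicate 5 reached the control range. The log2 change was -0.22 ± 0.07 (SE, limma adjusted p = 0.156), and without DKO replicate 5 it was -0.27 and passed (limma adjusted p = 0.0499).

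Rab27b, the member best known from acinar zymogen granules, stood the other way. It measured 9.52, 9.51, 9.52, 9.22 and 9.56 in DKO, against 8.75, 9.11, 9.23, 9.34 and 9.02 in control. DKO replicate 4 lay inside the control range and the other 4 DKO arrays above it. This gave a change of 0.37 ± 0.11 on the log2 scale (SE, limma adjusted p = 0.113), a ratio of 1.30.

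The difference of Rab27b minus Rab27a within an array was 0.464, 0.516, 0.295, 0.068 and 0.188 in DKO replicates 1 to 5, against -0.601, -0.212, -0.205, -0.057 and -0.357 in control replicates 1 to 5. It was thus above 0 in 5 of 5 DKO arrays and below 0 in 5 of 5 control arrays. Its mean was 0.306 ± 0.187 in DKO and -0.286 ± 0.205 in control (SD, n = 5 each). Because signals of different probes have no common scale, only the shift of 0.593 between groups can be read, and not which paralog was more abundant. Of 15 pairs of related Rabs set against each other in this way this was the 1 whose groups did not overlap. The pairs were listed after the values had been seen, so no test is given.

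**Figure D2:**
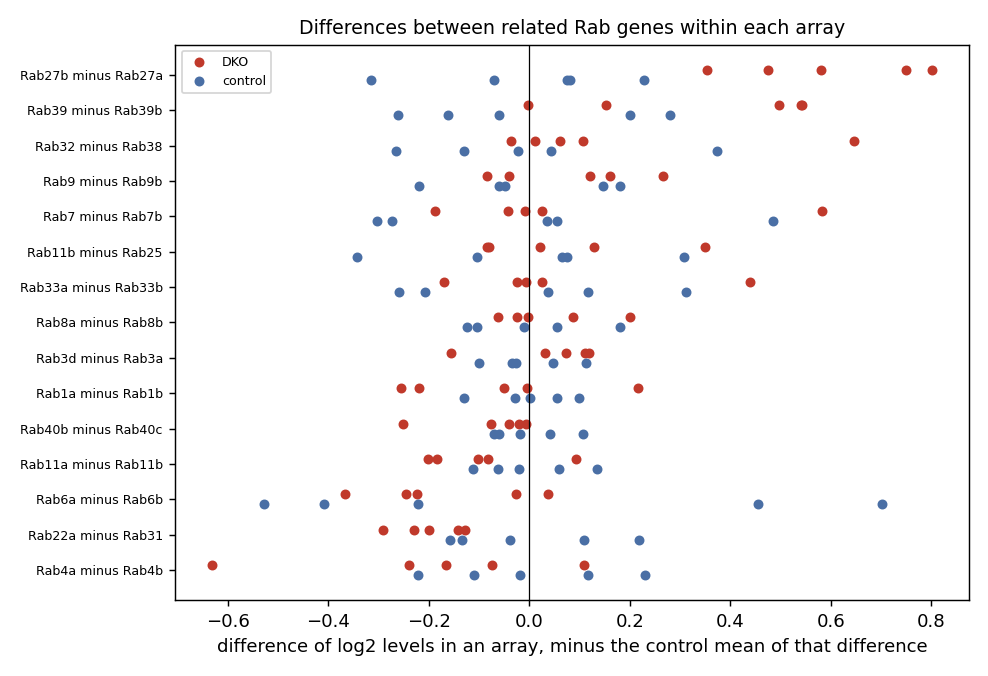
Difference of log2 levels between 15 pairs of related Rab genes in each array (horizontal axis, log2, relative to the control mean of that pair), with DKO arrays drawn above control arrays in each row. In the Rab27 pair the DKO arrays lie to the right of all control arrays, a mean shift of 0.593; in the other pairs the groups overlap.

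The window before a Rab27a start is shown because it held the E-box that MIST1 is known to bind. The motif searched was CATATG, which reads the same on both strands, in the 250 bases before each RefSeq start. RefSeq windows were found for 48 of the 59 genes, 60 windows in all. The E-box stood in 1 of these windows (1.67%) and in 3.46% of 32851 windows of all genes. A match is a description of the letters only. The Rab27a window is chr9:73063898-73064147 (GRCm38.p6, plus strand, the 1 of 2 Rab27a windows with the motif), with the motif in capitals starting 26 bases before the start.
Rab27a: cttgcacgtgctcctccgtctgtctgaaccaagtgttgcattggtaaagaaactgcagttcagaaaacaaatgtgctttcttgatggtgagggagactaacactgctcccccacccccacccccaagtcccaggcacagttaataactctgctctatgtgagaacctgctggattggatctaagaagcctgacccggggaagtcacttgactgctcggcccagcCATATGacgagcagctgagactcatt

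The remaining granule members were Rab3b and Rab3c, which serve neuroendocrine exocytosis. Rab3b had a log2 change of 0.0003 with arrays between 7.08 and 7.69 in DKO and 7.11 and 7.75 in control. Rab3c was at 5.19 ± 0.20 in DKO and 4.90 ± 0.12 in control (SD, n = 5 each; limma adjusted p = 0.164). Rab3c is 1 of 3 Rab genes, with Rab39 and Rab42, among the dimmest 25% of genes, where background may compress a change.

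**Figure D3:**
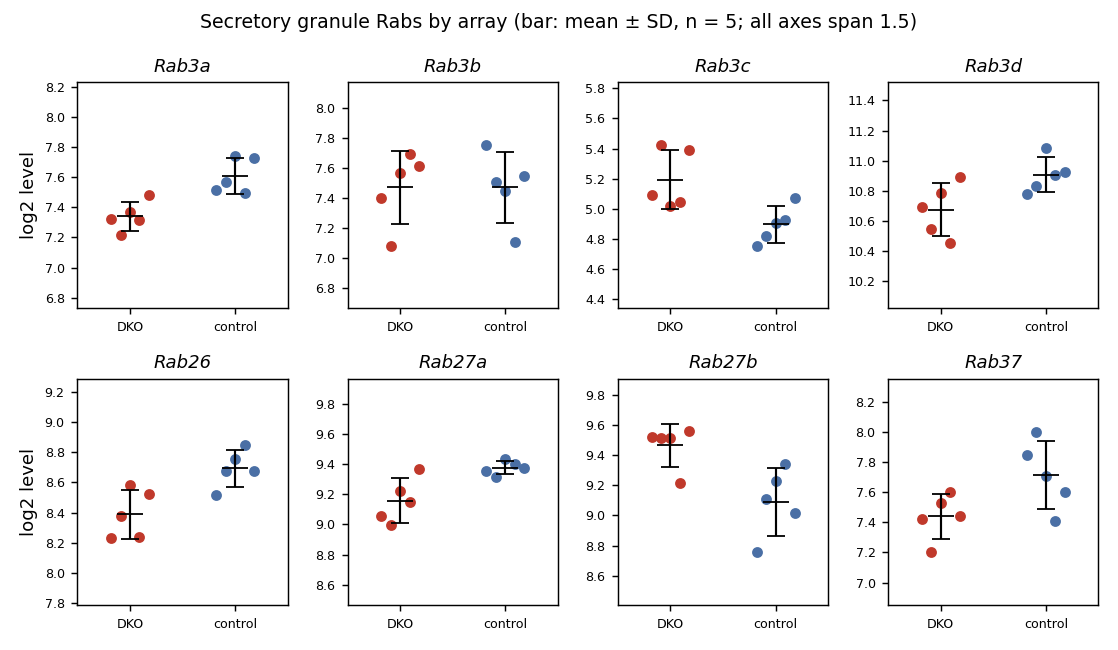
Log2 levels (vertical axes, each spanning 1.5) of the 8 secretory granule Rabs in each array, DKO left and control right, with the mean and SD of 5 arrays. Rab3a separates the groups with DKO lower, Rab27b is higher in 4 of 5 DKO arrays, and the Rab3b means are 7.47 in both groups.

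Rabs of recycling endosomes return receptors and apical proteins to the surface. Of 9 genes 8 had changes above 0 (7 after either rescaling). Their median was 0.08 on the log2 scale (0.03 after quantile normalization and 0.04 after median subtraction). At an unadjusted p under 0.05 there were 3, each higher in DKO, against 9.18% of all genes higher. Rab15, which acts in sorting from early to recycling endosomes, had the smallest p of the family. It measured 7.25, 7.24, 6.80, 7.28 and 6.96 in DKO, against 6.79, 6.68, 6.75, 6.73 and 6.75 in control. The groups did not overlap, though DKO replicate 3 lay just above the highest control array. Its estimated change was 0.37 ± 0.09 on the log2 scale (SE, limma adjusted p = 0.0642). Without DKO replicate 3 it was 0.45 and passed (limma adjusted p = 0.0117).

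Rab11b, a recycling endosome Rab shared by most cells, measured 11.40, 11.26, 11.30, 11.38 and 11.42 in DKO, against 11.25, 11.22, 11.14, 11.11 and 11.17 in control. All DKO arrays lay above all control arrays, by a small margin. On the log2 scale the difference was 0.17 ± 0.05 (SE, limma adjusted p = 0.120). The cluster used is the brighter of 2 for this gene, and its 20 neighbours in probe number are genes of chromosome 19, while Rab11b itself lies on chromosome 17. The cluster among chromosome 17 genes read 7.52 ± 0.07 in DKO and 7.43 ± 0.02 in control (SD, n = 5 each), so the value is uncertain. Rab17, a Rab of polarised epithelia, was at 7.27 ± 0.15 in DKO and 7.08 ± 0.13 in control (SD, n = 5 each; limma adjusted p = 0.323).

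The epithelial apical recycling Rabs Rab11a and Rab25 had changes of 0.08 and 0.10. Rab25 measured 10.36, 10.22, 9.83, 10.13 and 10.28 in DKO, against 10.06, 10.02, 10.13, 10.33 and 9.74 in control, with the groups intermingled. Its 95% confidence interval was -0.16 to 0.37, and that of Rab11a -0.04 to 0.19. Of 11 duct markers 8 had changes above 0 and 3 below in the same arrays. In limma 4 rose and none fell past the adjusted threshold, against 2.08% of all genes higher and 0.366% lower. The keratins Krt7 and Krt19 rose by 1.22 and 0.41 (limma adjusted p = 0.00112 and 0.0155). Against this direction, the progenitor and duct factor gene Sox9 had a change of -0.26 with every DKO array below every control array (limma adjusted p = 0.149), and Aqp5 and Muc1 had changes of -0.17 and -0.03. Rab4a was the 1 recycling Rab with a change below 0, at -0.18 (limma adjusted p = 0.422).

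Windows of Rab15 and Rab11b, the recycling Rabs whose groups did not overlap, are shown because each held the core TEAD motif, the letters through which YAP and TAZ reach DNA. The motif searched was CATTCC on either strand. It stood in 6 of the 60 Rab windows (10%) and in 12.6% of all windows. The other members with it were Rab11a, Rab20, Rab21 and Rab5a, with changes of 0.08, 0.11, 0.09 and 0.07 (limma adjusted p = 0.534, 0.623, 0.637 and 0.728). Rab31 and Rab19, also higher in DKO without overlap, were not among the members with it, though windows were found for only 48 of the 59 genes. As for Rab27a, a match describes the letters only. The Rab11b window lies on chromosome 17, while the cluster whose groups did not overlap has neighbours in probe number from chromosome 19. Whether that cluster reads transcripts from this window was not tested. Capitals mark the motif, which begins 237 bases before the start in Rab15 (chr12:76822525-76822774, minus strand, 1 of 4 windows) and 8 bases before it in Rab11b (chr17:33760487-33760736, minus strand), both from RefSeq on GRCm38.p6.
Rab15: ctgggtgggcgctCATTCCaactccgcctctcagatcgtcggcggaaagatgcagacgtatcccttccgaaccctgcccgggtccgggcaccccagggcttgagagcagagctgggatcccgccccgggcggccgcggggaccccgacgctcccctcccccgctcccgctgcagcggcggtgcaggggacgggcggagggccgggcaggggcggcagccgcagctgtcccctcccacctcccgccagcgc
Rab11b: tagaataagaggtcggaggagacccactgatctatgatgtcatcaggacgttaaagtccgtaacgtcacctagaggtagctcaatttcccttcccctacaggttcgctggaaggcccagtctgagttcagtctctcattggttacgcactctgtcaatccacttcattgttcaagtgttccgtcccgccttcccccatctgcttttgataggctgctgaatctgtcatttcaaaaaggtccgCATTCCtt

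Endosomal and lysosomal Rabs sort cargo after uptake. The 7 early endosome genes had changes above 0, between 0.05 and 0.24, with a median of 0.09, against -0.006 over all genes. After quantile normalization their median was 0.03, against -0.014 over all genes, and 1 of the 7 lay below 0. After median subtraction, which moves all changes by the same amount, it was 0.05, against -0.047 over all genes. Rab31, which moves cargo between the trans-Golgi network and endosomes, measured 9.43, 9.27, 9.23, 9.38 and 9.45 in DKO, against 9.15, 9.22, 9.00, 8.93 and 9.23 in control. The lowest DKO and the highest control array were equal to the second decimal, without overlap. This amounted to 0.24 ± 0.07 on the log2 scale (SE, limma adjusted p = 0.131). Rab5a, Rab5b and Rab5c, which drive early endosome fusion, had changes of 0.07, 0.09 and 0.05 (limma adjusted p = 0.728, 0.536 and 0.650).

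Of 6 late endosome and lysosome genes 3 had an unadjusted p under 0.05, each higher in DKO, against 9.18% of all genes higher. The median change of the 6 was 0.14 (0.10 after either rescaling). Rab7, the Rab of late endosomes, was at 11.03 ± 0.06 in DKO and 10.92 ± 0.06 in control (SD, n = 5 each; limma adjusted p = 0.323). Rab32 and Rab38, relatives that serve lysosome-related organelles such as melanosomes, had changes of 0.36 ± 0.13 and 0.20 ± 0.08 (SE; limma adjusted p = 0.229 and 0.252). Rab32 measured 8.46, 8.85, 8.27, 8.27 and 8.66 in DKO, against 8.07, 8.19, 7.87, 8.47 and 8.11 in control. Control replicate 4 lay among the DKO arrays.

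The Rabs of the early secretory pathway carry the bulk of acinar protein traffic. Of 14 genes 0 passed the adjusted threshold in limma. At an unadjusted p under 0.05 there was 1, higher in DKO, against 9.18% of all genes higher. The median change of the 14 was 0.06 (0.05 after quantile normalization and 0.02 after median subtraction). Rab1a, which directs transport from the endoplasmic reticulum to the Golgi, measured 11.58, 11.57, 11.69, 11.59 and 11.72 in DKO, against 11.68, 11.61, 11.70, 11.66 and 11.63 in control. Rab2a, which acts between the Golgi and the endoplasmic reticulum, was at 11.66 ± 0.06 in DKO and 11.73 ± 0.07 in control (SD, n = 5 each). The confidence intervals were -0.13 to 0.08 for Rab1a and -0.18 to 0.03 for Rab2a, which bounds any difference in these clusters well under 1.5-fold. The Rab2a cluster used has neighbours in probe number from chromosome 5. The cluster among genes of chromosome 4, where Rab2a lies, gave a change of 0.02. Rab6a, a Golgi Rab, had a change of 0.10 (limma adjusted p = 0.352).

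Rab19 was the member of that group with an unadjusted p under 0.05. It measured 7.44, 7.43, 7.17, 7.16 and 7.27 in DKO, against 6.99, 7.14, 7.03, 7.09 and 7.02 in control. The groups did not overlap, with DKO replicates 3 and 4 close to control replicate 2. Rab19 thus differed by 0.24 ± 0.07 on the log2 scale (SE, limma adjusted p = 0.108).

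Among 7 Rabs of post-Golgi and polarised surface transport, changes lay between -0.09 and 0.14 and none had an unadjusted p under 0.05; 4 lay above 0, and 2 after either rescaling. Rab10, which moves cargo to the basolateral surface, measured 11.65 to 11.82 in DKO and 11.67 to 11.73 in control. Rab8a, a Rab of apical transport and cilia, had a change of 0.004 and Rab13, of tight junction recycling, one of 0.02, both below 0 after either rescaling. In the last group, of ciliary, autophagy and other Rabs, 6 of 7 changes lay below 0 (5 after quantile normalization). Rab39b, known from neurons and encoded on chromosome X, measured 7.37 to 7.81 in the 5 DKO arrays, against 7.67 to 8.14 in the 5 control arrays. DKO replicates 4 and 5 overlapped with control replicates 2 and 3. DKO minus control came to -0.37 ± 0.11 on the log2 scale (SE, limma adjusted p = 0.136).

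**Figure D4:**
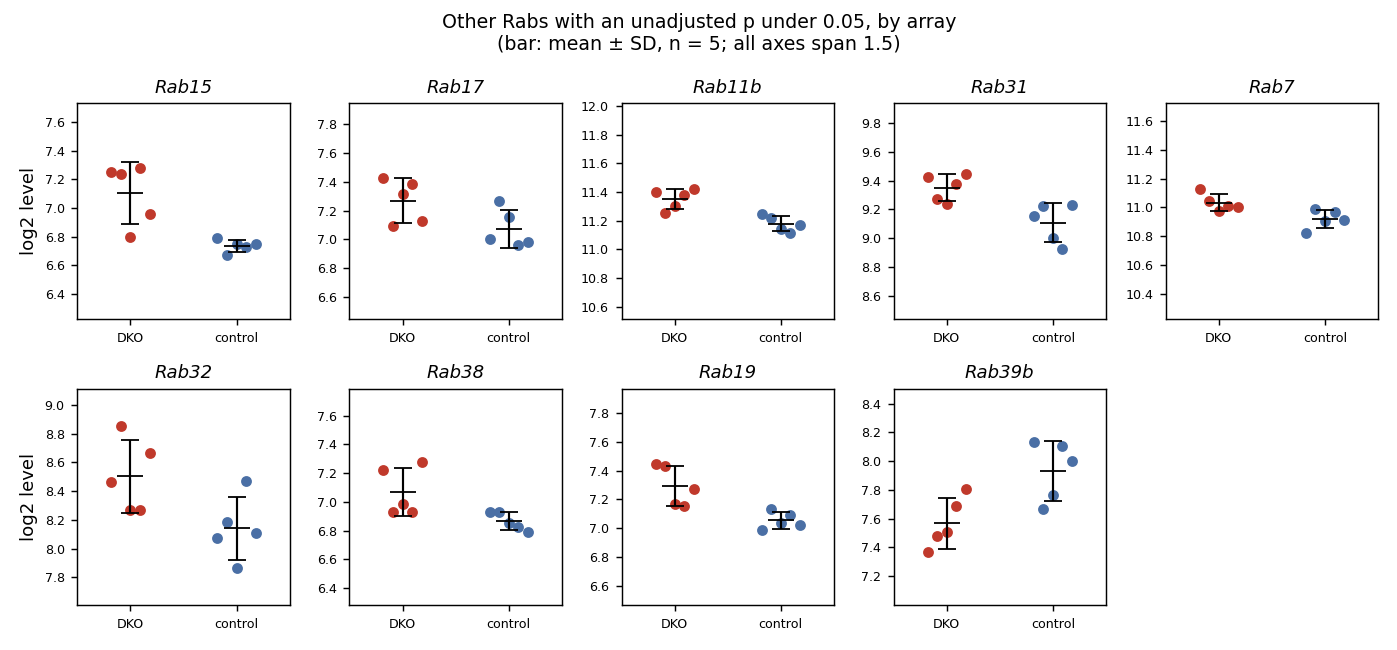
Log2 levels (vertical axes, each spanning 1.5) of the 9 Rab genes outside the granule group with an unadjusted p under 0.05, in each array, DKO left and control right, with the mean and SD of 5 arrays. Rab15, Rab11b, Rab31 and Rab19 separate the groups with DKO higher; Rab39b is lower in DKO with overlap.

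Regulators and effectors of the Rabs were taken from 9 lists of 148 measured genes. Of these 2 rose and 2 fell past the adjusted threshold in limma, against 2.08% of all genes higher and 0.366% lower. Their median change was 0.04. Rab11fip5, an effector of Rab11 in apical recycling, measured 9.61, 9.12, 9.27, 9.39 and 9.38 in DKO, against 8.87, 9.00, 8.87, 8.50 and 8.94 in control. The groups did not overlap. It rose by 0.52 ± 0.11 (SE, limma adjusted p = 0.0341), and of 5 members of the FIP family it was the 1 past the test. Its relative Rab11fip4 had a change the other way, of -0.24 (limma adjusted p = 0.170). The call of Rab11fip5 ended on leaving out any of 7 arrays, with adjusted p of up to 0.0798 in limma.

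Sytl1, an effector of Rab27 that is found on acinar zymogen granules, fell. It measured 7.90, 7.82, 7.95, 7.89 and 8.01 in DKO, against 8.20, 8.27, 8.23, 8.07 and 8.11 in control, without overlap. The log2 change was -0.26 ± 0.06 (SE, limma adjusted p = 0.0359). The call ended on leaving out any of 8 arrays (limma adjusted p up to 0.0996). Of the 15 effectors of Rab3 and Rab27, 3 were lower at an unadjusted p of 0.05 and 1 higher, against 5.66% and 9.18% of all genes. The other lower effectors were Rph3al and Myrip, which bind Rab3 and Rab27, with changes of -0.25 and -0.27 (limma adjusted p = 0.156 and 0.164). Over all 15 effectors 7 changes lay above 0 and 8 below, between -0.27 and 0.24, with a median of -0.005.

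Sgsm3, a GTPase-activating protein described for Rab5, fell by 0.31 on the log2 scale, to 8.51 ± 0.10 in DKO, against 8.82 ± 0.08 in control (SD, n = 5 each; limma adjusted p = 0.0224). Its call ended on leaving out any of 5 arrays (limma adjusted p up to 0.0677). Dennd1b, a DENN domain exchange factor that acts on Rab35, rose by 0.18 ± 0.04 (SE, limma adjusted p = 0.0445), and it failed without any 1 of the 10 arrays (limma adjusted p of 0.0628 to 0.122). These were the only calls among 35 measured GTPase-activating proteins and 35 measured exchange factors. Rab35 itself had a change of 0.05 and Rab5a one of 0.07.

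In limma, 0 of 10 exocyst genes, 0 of 16 endosomal effectors, 0 of 16 granule SNARE genes, 0 of 6 prenylation and GDI genes and 0 of 6 Rab-like GTPases passed the adjusted threshold. At an unadjusted p of 0.05 there were 0, 2, 3, 2 and 2 genes higher in DKO in these lists, in that order. The 1 lower was a Rab-like GTPase gene. Over all genes 9.18% were higher and 5.66% lower at that p. Snap23, the plasma membrane SNARE of acinar exocytosis, measured 11.49, 11.73, 11.46, 11.47 and 11.42 in DKO, against 11.23, 11.18, 11.14, 11.35 and 11.23 in control. The groups did not overlap, and the change was 0.28 ± 0.07 (SE, limma adjusted p = 0.0539). Chm and Chml, the escort proteins that present new Rabs for prenylation, had changes of 0.17 and 0.27 (limma adjusted p = 0.267 and 0.246). Rabl2, a Rab-like protein of cilia, had a change of 0.39 ± 0.11 (SE, limma adjusted p = 0.0900).

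**Figure D5:**
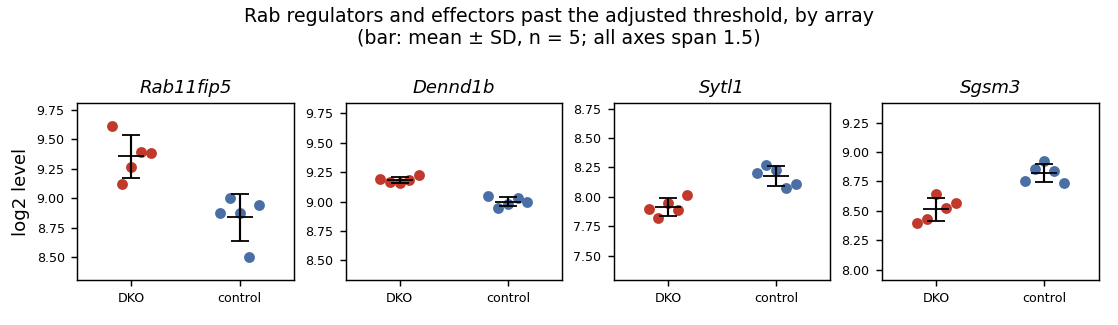
Log2 levels (vertical axes, each spanning 1.5) in each array of the 4 regulators and effectors of Rabs past the adjusted threshold, DKO left and control right, with the mean and SD of 5 arrays. Rab11fip5 and Dennd1b are higher and Sytl1 and Sgsm3 lower in 5 of 5 DKO arrays.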

How the data were processed

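Total RNA of 10 mouse pancreas samples, 5 DKO and 5 control by their titles, was measured on Affymetrix Mouse Gene 1.0 ST arrays. The log2 values deposited by the authors were made with Affymetrix Expression Console, per the submitters' processing notes; for its version and for the background, summarization and normalization methods, the status is: not given in the sources used here. They were used as deposited. By the platform annotation 21789 of 35556 clusters had 1 gene symbol, 1621 several and 12146 none; clusters with 1 symbol were kept, and the brightest cluster over all arrays stood for each of 19938 genes. Of 70 symbols that begin with Rab and a digit, 11 (such as Rab3gap1, Rab11fip5 and Rab10os) were not Rab GTPases.

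The test of DKO against control was limma's, version 3.58.1, under R version 4.3.3 (lmFit, eBayes, two-sided, Benjamini-Hochberg over all genes, threshold 0.05). The fit was tested on simulated data for this comparison over 19938 genes. It recovered 70.1% of 67 genes changed by 0.5 and 97% of 67 changed by 1 on the log2 scale, with 7 false calls. Changes as small as those of the Rab genes, at most 0.37 in size, were not simulated, so recovery at that size is unknown. The median SE over all genes was 0.0754, and 5 arrays per group limit the precision. Alternatives were quantile normalization, median subtraction, filters on dim genes, other variance settings, array weights, cluster means, a replicate block and leaving out arrays.

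The members and lists were chosen with earlier results of these data known. Lists matched 230 of 245 entries. Named were Rabs with an unadjusted p under 0.05, Rab3a, Rab3d, Rab26, Rab27a, Rab27b, Rab11a and Rab25, the 3 Rabs with the brightest clusters (Rab10, Rab1a and Rab2a), and up to 3 genes per regulator list by p; other names were chosen after their values were seen. Promoter windows are from RefSeq, assembly GRCm38.p6.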

Additional observations from a re-analysis of the deposited data

Results flagged for a closer look

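In 10 of 118 groups of 5 arrays (59 Rab genes in DKO and in control), 1 array stood apart from the other 4 by Dixon's criterion for 5 samples, where chance gives about 1 in 20, or 5.9 groups. Rab27b in DKO replicate 4 was at 9.22, against 9.51 to 9.56 in the other DKO arrays, and without that array its log2 change was 0.44 (limma adjusted p = 0.0654). The Rab of autophagy Rab24 was at 8.82 in DKO replicate 2, against 8.95 to 9.00. Rab6a was at 10.14 in DKO replicate 3, against 10.22 to 10.26, and Rab4b at 8.43 in the same array, against 8.80 to 8.93. Rab14 was at 10.80 in DKO replicate 1, the array with high hepatocyte markers, against 10.86 to 10.88. Rab2a was at 11.75 in DKO replicate 5, against 11.61 to 11.65, and Rab42 at 4.76 in DKO replicate 4, against 5.13 to 5.25. In control replicate 4, Rab29 was at 8.63, against 8.23 to 8.30, Rab20 at 7.56, against 7.87 to 7.96, and Rab8a at 10.78, against 10.53 to 10.59.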

How the results depend on the processing

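The count of Rab genes past the limma threshold stayed at 0 in each direction under quantile normalization, median subtraction, both filters on dim genes (56 and 41 members tested), trended and robust variance, no moderation and cluster means. Array weights gave 1 lower gene. A threshold of 0.1 gave 1 higher and 1 lower gene, and one of 0.01 none. Leaving out each array in turn gave 0 to 1 higher genes (1 without DKO replicate 3) and 0 to 1 lower genes (1 without DKO replicate 5). Without control replicate 2 and DKO replicate 4 together there were 0. None of the 21 Rabs chosen by the naming rule changed sign under these settings. Over all 59 members, 8 changed sign after quantile normalization and 8 after median subtraction, with changes as deposited of at most 0.0474 and 0.0379 in size; among them Rab3b, Rab8a and Rab13 were at -0.03, -0.03 and -0.002 after quantile normalization and at -0.04, -0.04 and -0.02 after median subtraction. The median change of the Rab genes, 0.054, was 0.018 after quantile normalization, 0.014 after median subtraction, and 0.031 to 0.074 on leaving out 1 array. Over all genes the median was -0.006 as deposited, -0.014 after quantile normalization and -0.047 after median subtraction. Same-numbered DKO and control arrays deviated from their group means with correlations between -0.267 and 0.290. Whether the numbers pair the samples is not stated, and such correlations cannot decide it. With the replicate block 0 Rab genes passed in either direction, the median change was 0.054, and calls over all genes were 178, against 487 without it. The calls of Rab11fip5, Sytl1, Sgsm3 and Dennd1b held in 8, 9, 13 and 5 of 20 settings, chosen for these genes after seeing the data; each ended with the replicate block (adjusted p = 0.126, 0.169, 0.0784 and 0.205 in limma) and without control replicate 2 and DKO replicate 4 together, and those of Rab11fip5 and Dennd1b also after quantile normalization (0.0624 and 0.0875) and median subtraction (0.0630 and 0.126). The cause was not tested.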

Other observations

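Rab6b, a Golgi Rab known mainly from neurons, was the member with the widest spread among control arrays. It measured 8.11, 8.15, 8.28, 8.50 and 8.38 in DKO, against 8.42, 7.37, 7.55, 8.46 and 8.28 in control, where control replicates 2 and 3 lay apart from the other 8 arrays. The log2 change over all arrays was 0.26 ± 0.21 (SE, limma adjusted p = 0.587). Rab2b, a relative of Rab2a, was also variable, at 7.69 to 8.51 in DKO and 7.52 to 8.17 in control.

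For Rab2a and Rab5b, as for Rab11b, the brighter of 2 clusters has neighbours in probe number from a chromosome other than that of the gene. The cluster of Rab2a among chromosome 5 genes gave a log2 change of -0.08 and the one among chromosome 4 genes, where Rab2a lies, 0.02. For Rab5b the cluster among chromosome 2 genes gave 0.09 and the one among chromosome 10 genes, where Rab5b lies, 0.05. Which transcripts these brighter clusters detect was not tested.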
